A study of Arabidopsis thaliana with 248 samples.

Results

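AT3G29648 and AT3G29650 are neighboring transposable element (TE) genes on chromosome 3 of *Arabidopsis thaliana*, and they are 2 of the 3903 TE genes and 33602 genes counted in each of 2 mRNA-seq experiments. They were taken up because of their *ldl2* effect in F1 plants, AT3G29648 and AT3G29650 in sxc *ldl2* against sxc, and AT3G29650 also in cxs *ldl2* against cxs. The choice names the genes and sets no threshold. The values of those F1 libraries therefore chose the genes and are given below as a description, without a test. For the pair, tests were made only in the parents, WT, and the separate *ashh3* experiment.

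The plants were 2-week-old Col-0 seedlings grown on MS plates, and a library is bulk RNA of seedlings. The *ldl2* experiment holds 9 genotypes with 3 libraries each. These are WT, the parents *suvh4/5/6* and *cmt2/3*, the same parents with *ldl2* (*suvh4/5/6 ldl2* and *cmt2/3 ldl2*), and the F1 plants of both crosses without and with *ldl2*. In sxc the *suvh4/5/6* plant is named first and in cxs the *cmt2/3* plant is, so that an F1 plant is heterozygous for all 5 genes. In sxc *ldl2* and cxs *ldl2* both parents lacked LDL2. The *ashh3* experiment holds WT, cxs, and cxs *ashh3*, again with 3 libraries each, and in cxs *ashh3* both parents lacked ASHH3. The alleles *ldl2-1* and *ashh3/sdg7-2* are T-DNA insertions, each represented by 1 allele.

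SUVH4, SUVH5, and SUVH6 are the H3K9 methyltransferases of plant heterochromatin, and CMT2 and CMT3 methylate cytosines outside CG sites (mCH). The histone mark and the DNA mark maintain each other, so that losing either enzyme class releases many TEs from silencing, and in the F1 the complete set of enzymes is present again. LDL2 is a demethylase that removes H3K4me1, a mark of transcribed chromatin, and ASHH3 is an H3K36 methyltransferase. The crosses ask whether TEs are silenced again in one generation, and what loss of LDL2 or ASHH3 does to that.

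AT3G29648 (chr3:11514936-11517766, 2831 bases) and AT3G29650 (chr3:11517826-11521441, 3616 bases) are both on the plus strand, each with a single exon and annotated as a pseudogene in TAIR10.1, whose coordinates for these genes are the same as in the deposited tables (TAIR10). No introns or UTRs are annotated. Both were counted on their sense strand in both experiments, and no other annotated gene overlaps them. Whether the genes give separate transcripts was not tested. Only 59 bases lie between the genes, and this stretch is shown because it is all that separates the intervals that were counted apart:
between the genes, chr3:11517767-11517825: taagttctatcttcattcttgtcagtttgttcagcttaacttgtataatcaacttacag

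The genes do not match each other in sequence (no blastn alignment), but they lie together in 1 insert of 8144 bases (chr3:11513763-11521906), of which 79.2% is covered by the genes. The insert starts 1173 bases before AT3G29648 and ends 465 bases after AT3G29650. Its limits were found by comparing the flanks with 7 places of the genome where the flanking repeat runs on without the insert, and 6 of the 7 gave the same limits. At these limits 3 bases, GAT, occur on both sides of the insert and once in the uninterrupted copy. The flanks are shown with these bases in capitals:
left flank, chr3:11513743-11513762: tatggagtttagggctaGAT
right flank, chr3:11521907-11521926: GATtacttaagatccttgtt
uninterrupted copy, chr4:5356999-5357035: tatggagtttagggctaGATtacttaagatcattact

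The ends of the insert are inverted copies of each other. Of the first 13 bases, in capitals, 12 match between the left end and the reverse complement of the right end, and the difference is A8G, counted from 1 at the outer end, with the left end first:
left end, chr3:11513763-11513788: CACTACAAGAAAAgtgagtattaata
right end, chr3:11521881-11521906, minus strand: CACTACAGGAAAAacgagaattaata
Inverted ends that begin with CACTA and a duplication of 3 target bases are the textbook features of the CACTA (En/Spm) class of DNA transposons, which move by a cut-and-paste transposase. The annotation does not name a family for either gene.

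2 other TE genes, both on chromosome 4, share sequence with the pair by the rule of at least 80% identity over at least 200 bases. AT4G06588 (chr4:3598434-3603301) matched AT3G29648 at 97.02% over 2251 bases and AT3G29650 at 95.91% over 2639 bases. On chromosome 4 these matches are joined end to end, and 1619 bases from the middle of the insert are missing. AT4G04105 (chr4:1969059-1972381) matched AT3G29650 at 95.1% over 1490 bases. Both copies keep a left end like that of the insert upstream of the gene, shown because 25 of its 26 bases are the same, the difference being C6A in the first and C6T in the second, with the base of the insert first:
left end upstream of AT4G06588, chr4:3597265-3597290: CACTAAAAGAAAAgtgagtattaata
left end upstream of AT4G04105, chr4:1968432-1968457: CACTATAAGAAAAgtgagtattaata

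**Figure D1:**
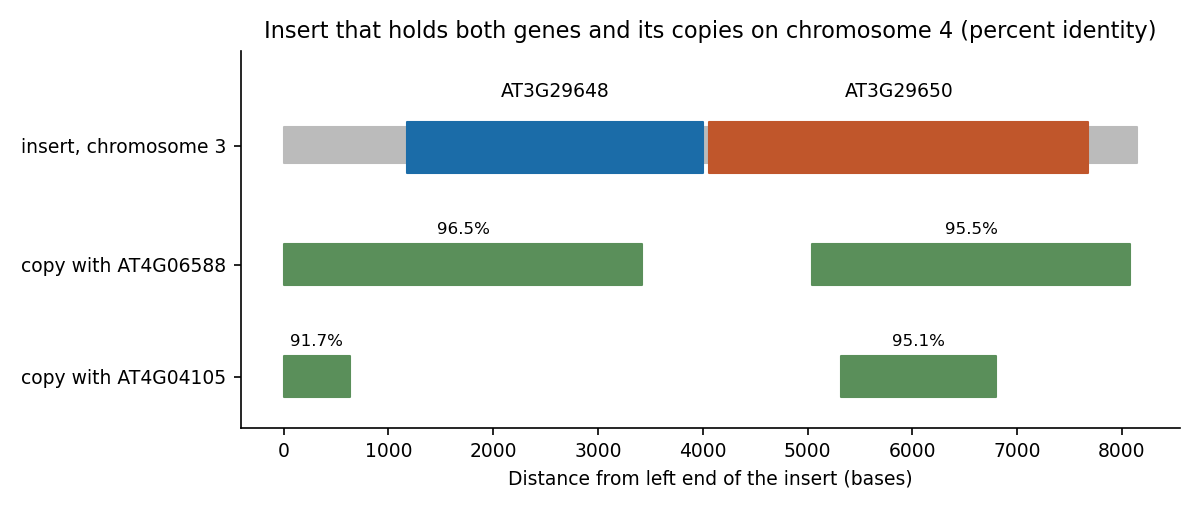
Map of the insert on chromosome 3 with both genes and the stretches of chromosome 4 that match it. The horizontal axis gives the distance in bases from the left end of the insert, and the numbers are percent identity. The copy with AT4G06588 lacks 1619 bases that span the junction of the genes.

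Because of these copies, part of each gene may be undercounted. The authors counted reads with the GeneCounts mode of STAR, which takes uniquely mapped reads, after clipping to 100 bases. Of the 2732 windows of 100 bases in AT3G29648, 2578 (94.4%) occur nowhere else in the reference genome, and in AT3G29650 3418 of 3517 (97.2%) do. A read from the remaining 154 and 99 windows has more than 1 place unless its mate lies in a unique stretch, and mates were not considered here.

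Library totals ranged from 8448989 to 12942034 counts in the *ldl2* experiment and from 8252720 to 10656469 in the *ashh3* experiment. The mutant labels were checked with the mutated genes. *SUVH4* and *SUVH5* fell in *suvh4/5/6* (adjusted P = 1.44e-08 and 0.000555) and *CMT3* fell in *cmt2/3* (adjusted P = 8.93e-10). *SUVH6* was not lower in *suvh4/5/6* (24.7 CPM against 20.1 CPM in WT, adjusted P = 0.677), and *CMT2* in *cmt2/3* did not pass (26.4 CPM against 38.6 CPM, adjusted P = 0.0537). Reads on *LDL2* remained in the *ldl2* genotypes (mean, 3.03 to 3.60 CPM, against 3.95 to 4.33 CPM in the other genotypes of that experiment). As reads on a gene with a T-DNA insertion can come from outside the insertion, they do not check that label. The root gene *PYK10* had group means of 73.4 to 136 CPM in the *ldl2* experiment and 1120 to 1388 CPM in the *ashh3* experiment. The leaf genes *RBCS1A* and *CAB3* were high in all libraries, but in cxs *ldl2* replicate 2 *CAB3* was at 787 CPM (median of all libraries, 5554 CPM) and 30088 genes were detected, more than in any other library. sxc *ldl2* replicate 3 and cxs *ldl2* replicate 3 were also low in *CAB3*, at 2018 and 2280 CPM. The seed storage genes *CRA1* and *CRC* were below 1 CPM in sum in all libraries of the *ldl2* experiment, and *CRC* was at 0 in 22 of the 27.

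Neither gene had a count in any WT library. Over the 3 WT libraries this allows a level of up to 0.0884 CPM in the *ldl2* experiment and 0.109 CPM in the *ashh3* experiment (3 counts over the group, counting error only, as for all bounds and counting intervals given here). CPM values use library sizes scaled by TMM.

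Both genes were on in the *suvh4/5/6* parent. AT3G29648 had 264, 295, and 205 counts in the 3 libraries, or 21.1 ± 1.79 CPM (SD, n = 3). AT3G29650 had 479, 529, and 380 counts, or 38.5 ± 2.63 CPM (SD, n = 3). Every *suvh4/5/6* library was above every WT library for both genes, which 10.9% of all genes showed. Against WT, AT3G29648 was at least 240.4-fold higher and AT3G29650 at least 437-fold higher. Both passed the test (edgeR, adjusted P = 1.15e-09 and 3.36e-10), as did 2.09% of all genes and 11% of TE genes in the direction of a rise. Of the 194 LDL2-regulated TE genes, a list the study chose by DNA methylation and to which both genes belong, 95 rose and none fell in *suvh4/5/6*, with a median log2 difference of 4.89 over the 163 with a value, against -0.02 over all genes. Here and below, medians of log2 differences use pooled counts, with a group at 0 set to 3 counts. Genes with at most 3 counts in both groups have no value and are left out, also from all genes. The median of the edgeR log2 differences over all 194 was 4.99. As the study chose the list on F1 plants of these crosses, it is no independent evidence of the direction. In bulk seedlings, more cells with the transcript and more transcript per cell cannot be told apart.

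In the *cmt2/3* parent the genes were on at a lower level. AT3G29648 had 19, 31, and 30 counts, or 2.50 ± 0.723 CPM (SD, n = 3), and AT3G29650 had 60, 45, and 41 counts, or 4.50 ± 0.678 CPM (SD, n = 3). All *cmt2/3* libraries were above the WT libraries, as for 12.7% of all genes. The levels were at least 28.0-fold and at least 51.1-fold higher than in WT. Both rose (adjusted P = 2.11e-05 for AT3G29648 and 5.70e-06 for AT3G29650), against 2.32% of all genes and 5.89% of TE genes. In the same comparison 61 of the 194 LDL2-regulated TE genes rose and none fell (median log2 difference, 2.66 over 133 with a value, against -0.03 over all genes). The median of the edgeR log2 differences over all 194 was lower, at 1.91.

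The parents differed by almost the same factor for both genes. The log2 difference between *suvh4/5/6* and *cmt2/3* was 3.08 ± 0.34 (SE) for AT3G29648 and 3.09 ± 0.35 (SE) for AT3G29650, an 8.58-fold and 8.54-fold ratio of the pooled counts. Each SE of a log2 difference, here and below, was derived from the edgeR test and not fitted. It is the size of the log2 difference divided by the square root of the F statistic. The lowest *suvh4/5/6* library (19.3 and 35.8 CPM) was well above the highest *cmt2/3* library (2.93 and 5.26 CPM), and 6.41% of all genes showed such a separation. Both passed the test (adjusted P = 1.83e-05 for each), against 0.634% of all genes and 3.95% of TE genes. Of the 194 LDL2-regulated TE genes, 53 were higher in *suvh4/5/6* and none lower, with a median of 2.02 over 157 genes against 0.01 over all genes.

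Adding *ldl2* to the parents went with higher values, but these did not pass the adjusted test. In *suvh4/5/6 ldl2*, AT3G29648 had 469, 548, and 399 counts (42.5 ± 5.94 CPM, SD, n = 3) and AT3G29650 had 738, 967, and 652 counts (70.7 ± 13.4 CPM, SD, n = 3). No library of *suvh4/5/6 ldl2* overlapped with those of *suvh4/5/6* for either gene, which was so for 4.29% of all genes. The log2 difference was 1.01 ± 0.29 (SE) for AT3G29648 and 0.88 ± 0.31 (SE) for AT3G29650, in a fit that did not pair libraries by replicate number. The unadjusted P values were 0.0022 and 0.00936 and the adjusted P was 1 for both, in a comparison in which 0.0208% of all genes and 0.179% of TE genes were called higher. When the 2 genotypes were fitted without the others, AT3G29648 passed (adjusted P = 0.0374).

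In *cmt2/3 ldl2*, AT3G29648 had 98, 42, and 54 counts (6.10 ± 2.20 CPM, SD, n = 3) and AT3G29650 had 142, 103, and 118 counts (11.6 ± 0.892 CPM, SD, n = 3). Here too all 3 libraries were above those of *cmt2/3* for both genes, as for 10.4% of all genes. The log2 difference was 1.30 ± 0.34 (SE) for AT3G29648 and 1.36 ± 0.36 (SE) for AT3G29650, with unadjusted P values of 0.00129 and 0.000927 and adjusted P values of 0.201 and 0.188. In this comparison 0.0565% of all genes and 0.384% of TE genes were called higher. This call depended on the method: both genes passed with the Wald test of DESeq2 (adjusted P = 0.0377 and 0.0308) and when the 2 genotypes were fitted alone (adjusted P = 0.0351 and 0.00104).

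The *ldl2* effects in the parents could not be distinguished. The difference of the effects, *cmt2/3* minus *suvh4/5/6*, was 0.29 ± 0.44 (SE) on the log2 scale for AT3G29648 and 0.49 ± 0.47 (SE) for AT3G29650 (adjusted P = 1 for both), where 0.0119% of all genes and 0.0769% of TE genes were called higher. Of the 194 LDL2-regulated TE genes, 1 rose with *ldl2* in *suvh4/5/6* and 9 in *cmt2/3*, and none fell in either, beside 0.0208% and 0.0565% of all genes called higher. In *cmt2/3* the count was 28 with DESeq2 and 50 when the 2 genotypes were fitted alone. The share of all genes called was not counted under these 2 fits, so these counts cannot be set against it.

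**Figure D2:**
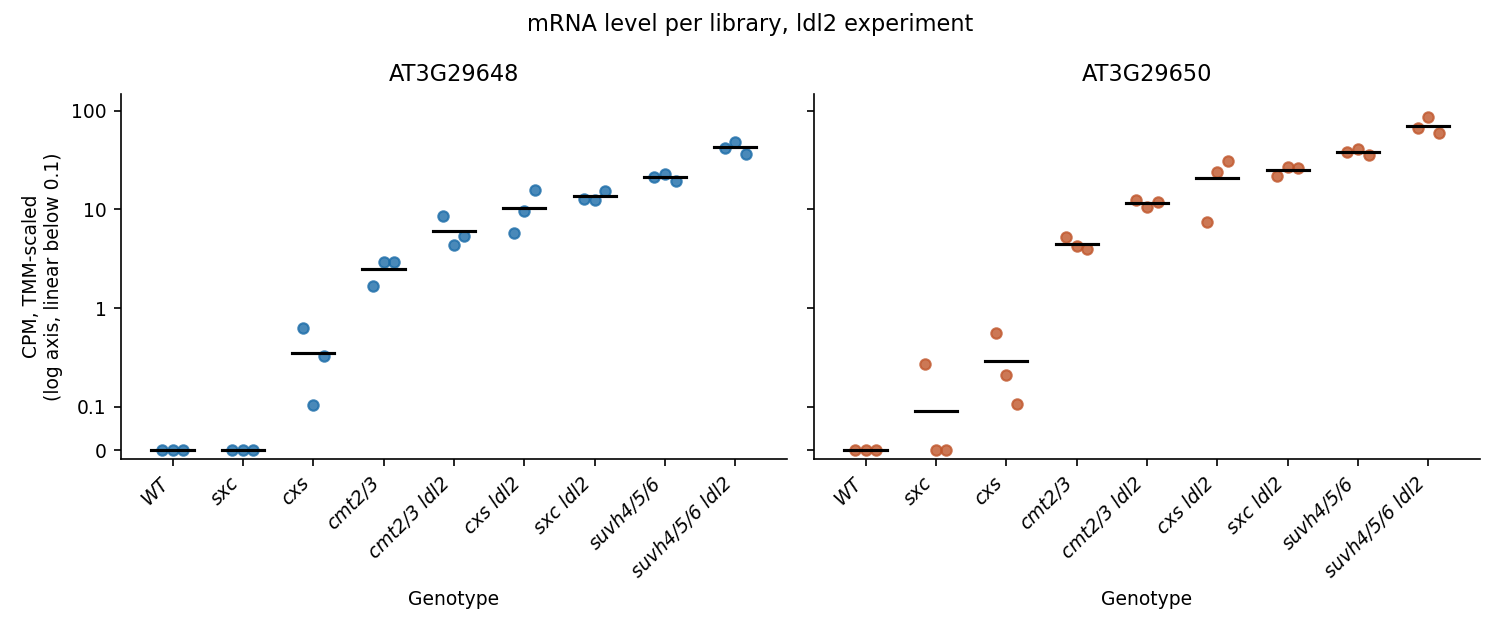
CPM of AT3G29648 (left) and AT3G29650 (right) in each of the 27 libraries of the *ldl2* experiment, by genotype, on a log axis that is linear below 0.1. Points are libraries and black lines are means of 3 libraries. The means follow the same order for both genes, from WT at 0 to *suvh4/5/6 ldl2* at 42.5 and 70.7 CPM.

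The F1 plants, whose values chose the genes, are described next. Both genes were almost off in sxc and cxs. AT3G29648 stood at 0 in each sxc library and had 8, 1, and 3 counts in cxs (0.352 ± 0.265 CPM, SD, n = 3). AT3G29650 had 3, 0, and 0 counts in sxc (0.0891 ± 0.154 CPM, SD, n = 3) and 7, 2, and 1 counts in cxs (0.289 ± 0.234 CPM, SD, n = 3). One sxc library and all cxs libraries thus held a few reads of the pair, unlike WT. An F1 plant carries 1 genome from each parent, and the mean of the parents was taken as the reference. The sxc plants had 0% of that mean for AT3G29648 and 0.415% for AT3G29650, and the cxs plants had 2.98% and 1.35%.

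With *ldl2*, both genes were on in the F1. In sxc *ldl2*, AT3G29648 had 129, 140, and 173 counts (13.6 ± 1.69 CPM, SD, n = 3) and AT3G29650 had 218, 304, and 294 counts (25.0 ± 2.98 CPM, SD, n = 3). Every library was above every sxc library, and 3.23% of all genes shared this. The level was at least 143-fold higher than in sxc for AT3G29648, and without the highest library, sxc *ldl2* replicate 3, at least 133-fold higher. For AT3G29650 the ratio to the 3 counts of sxc was 264 (95% exact counting interval, 90.2 to 1285). In this comparison 0.119% of all genes and 0.948% of TE genes were called higher.

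In cxs *ldl2* the libraries spread more widely. AT3G29648 had 59, 115, and 197 counts (10.4 ± 4.99 CPM, SD, n = 3) and AT3G29650 had 77, 287, and 392 counts (20.9 ± 12.1 CPM, SD, n = 3). Replicate 1 was the lowest for both genes and replicate 3 the highest, and all 3 were above every cxs library, as for 6.64% of all genes. The ratio to cxs was 28.2 (95% exact counting interval, 15.9 to 55.0) for AT3G29648 and 68.9 (37.2 to 144) for AT3G29650. Without cxs *ldl2* replicate 2, the library lowest in *CAB3*, the ratios were 29.6 and 65.1. This replicate lay between the others for both genes, so leaving it out says little about *CAB3*. Replicate 1, highest in *CAB3*, was at 5.77 and 7.54 CPM, and replicate 3, also low in *CAB3*, at 15.7 and 31.2 CPM. The *CAB3* level in cxs *ldl2* was 5727 CPM in replicate 1, 787 CPM in replicate 2, and 2280 CPM in replicate 3, and its part in the spread was not tested. In this comparison 0.0565% of all genes and 0.333% of TE genes were called higher, and the median log2 difference over all genes was 0.13.

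Against the mean of the *ldl2* parents, the *ldl2* F1 plants had 55.9% in sxc *ldl2* and 42.6% in cxs *ldl2* for AT3G29648, and 60.7% and 50.8% for AT3G29650. The single libraries ranged from 51.2% to 63.9% and from 23.8% to 64.4% for AT3G29648, and from 52.4% to 65.7% and from 18.3% to 75.7% for AT3G29650. The means of the *ldl2* F1 plants thus lay between those of their parents, and every library was below every *suvh4/5/6 ldl2* library, whereas cxs *ldl2* replicate 1 was within or below the range of *cmt2/3 ldl2*. The reciprocal *ldl2* F1 plants overlapped with each other for both genes.

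**Figure D3:**
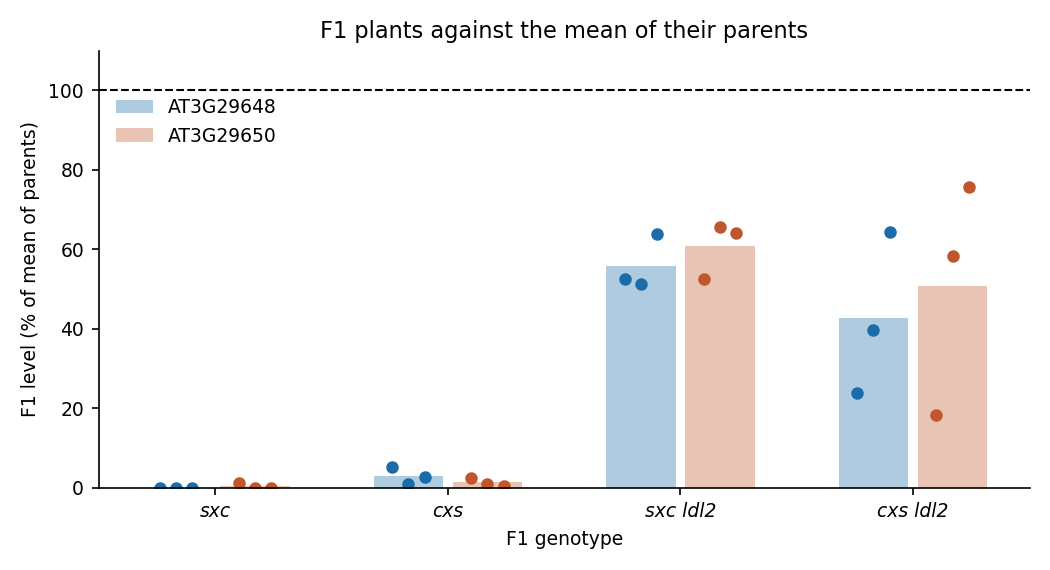
Level of both genes in the F1 plants as a percent of the mean of the respective parents, which is the dashed line at 100. Points are libraries and bars are means of 3 libraries. The F1 plants with LDL2 are between 0% and 5.34%, and the *ldl2* F1 plants between 18.3% and 75.7%.

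Over the 9 genotypes the order of the means was the same for both genes, apart from sxc and WT, which were both at 0 for AT3G29648. From the top it was *suvh4/5/6 ldl2*, *suvh4/5/6*, sxc *ldl2*, cxs *ldl2*, *cmt2/3 ldl2*, *cmt2/3*, cxs, sxc, and WT. Among neighbors in this order, the libraries of sxc *ldl2* and cxs *ldl2* overlapped, as did those of cxs *ldl2* and *cmt2/3 ldl2*, and for AT3G29650 those of cxs and sxc and of sxc and WT. In length-normalized units AT3G29648 stood at 23.7 TPM and AT3G29650 at 30.9 TPM in *suvh4/5/6 ldl2*, where they ranked 53 and 32 among the 3903 TE genes by TPM. In *suvh4/5/6* they were at 12.0 and 17.0 TPM and ranked 134 and 90, and in sxc *ldl2*, at 7.64 and 11.0 TPM, they ranked 148 and 109. In *cmt2/3*, at 1.42 and 1.98 TPM, the ranks were 371 and 317.

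The genes had almost the same pattern. The Pearson r of log2(CPM + 0.5) between AT3G29648 and AT3G29650 was 0.99 over the 27 libraries, which share their genotypes. These include the F1 libraries that chose both genes, so part of this agreement follows from the choice. The r without them was not computed. Counts per base were compared in the 19 libraries of both experiments with at least 10 counts for each gene. In all 19 the ratio of AT3G29650 to AT3G29648 was above 1, with a median of 1.38 and a range from 1.02 to 2.47. In 14 of the 19 the 95% exact counting interval of the ratio lay wholly above 1, and in none wholly below. The ratio was steady in *suvh4/5/6* (1.40 to 1.45) and *suvh4/5/6 ldl2* (1.23 to 1.38), where the counts were highest, and it spread from 1.07 to 2.47 in *cmt2/3*, where AT3G29648 had 19 to 31 counts. A spread was also seen at higher counts, in cxs *ldl2*. There the ratio was 1.02 (95% exact counting interval, 0.718 to 1.46) in replicate 1 and 1.95 (1.57 to 2.45) in replicate 2. These intervals do not overlap, so the ratio was not constant within counting error in that genotype.

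**Figure D4:**
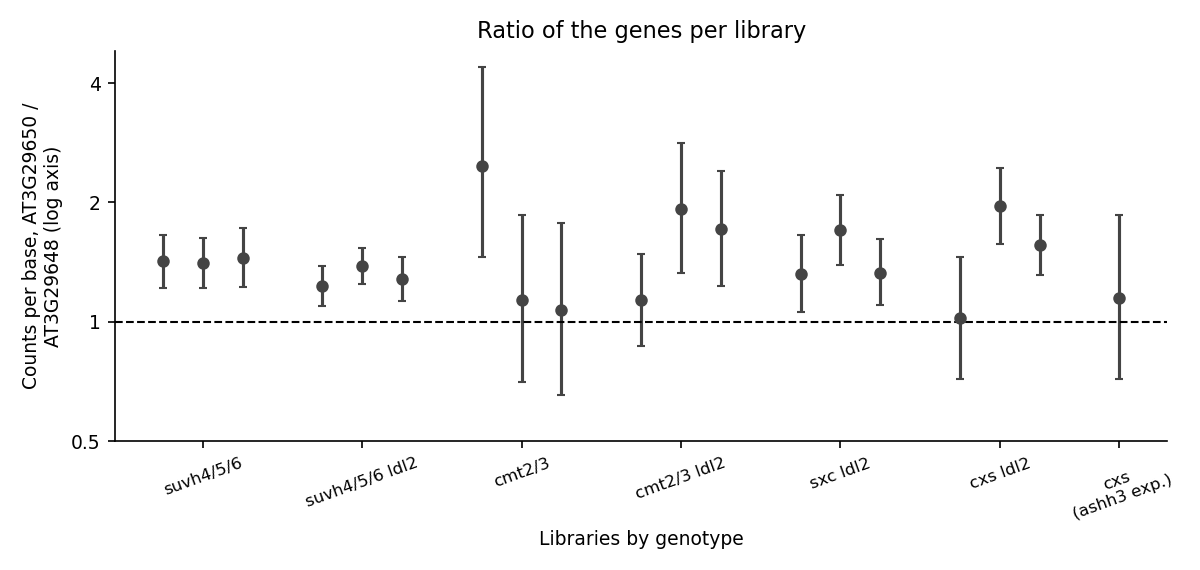
Counts per base of AT3G29650 divided by those of AT3G29648, on a log axis, in the 19 libraries with at least 10 counts of each gene. Points are libraries, error bars are 95% exact counting intervals, and the dashed line marks 1. All points are above 1, between 1.02 and 2.47.

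In the *ashh3* experiment, which did not choose the genes, both were on at low level in cxs. AT3G29648 had 2, 32, and 6 counts (1.33 ± 1.54 CPM, SD, n = 3) and AT3G29650 had 2, 47, and 14 counts (2.13 ± 2.20 CPM, SD, n = 3), so that replicate 2 held most of the reads of both. All 3 cxs libraries were above the WT libraries, which had no counts, as for 9.67% of all genes. The level was at least 12.6-fold higher than in WT for AT3G29648 and at least 19.9-fold for AT3G29650. Both rose (adjusted P = 0.0179 and 0.00768), against 2.37% of all genes and 4.71% of TE genes, but the call rested on replicate 2. Without it the adjusted P was 0.277 for AT3G29648 and 0.121 for AT3G29650, and the means were 0.456 and 0.934 CPM. The calls were also lost with bias-adjusted quasi-dispersions (adjusted P = 0.0617 and 0.0515), and that of AT3G29650 with DESeq2 (adjusted P = 0.207).

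In cxs *ashh3* the reads were gone but for 1. AT3G29648 had 0, 1, and 0 counts (0.0349 ± 0.0604 CPM, SD, n = 3) and AT3G29650 had none, which allows up to 0.114 CPM. Every cxs *ashh3* library was below every cxs library for both genes, as for 7.63% of all genes. AT3G29650 fell (adjusted P = 0.0356) and was at least 19.1-fold lower than in cxs, and 0.506% of all genes and 0.769% of TE genes fell. AT3G29648 did not pass (log2 difference, -4.73 ± 1.35 SE, adjusted P = 0.131), and the ratio of cxs to cxs *ashh3* in pooled counts was 36.4 (95% exact counting interval, 6.17 to 1474). Without cxs replicate 2, AT3G29650 was at least 7.57-fold lower with an adjusted P of 0.207, and the ratio for AT3G29648 was 11.3 (1.52 to 504). The fall of AT3G29650 was also lost with the Wald test of DESeq2 (adjusted P = 0.386), with bias-adjusted quasi-dispersions (adjusted P = 0.163), and without cxs *ashh3* replicate 1, 2, or 3 (adjusted P = 0.0961, 0.083, and 0.0654).

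Among the 14 ASHH3-regulated TE genes, also chosen by the study by DNA methylation and to which neither gene belongs, 9 fell and none rose in cxs *ashh3* against cxs (median log2 difference, -1.16 over 13 with a value, against -0.03 over all genes). Of the 194 LDL2-regulated TE genes, 14 fell and 3 rose, with a median of -0.78 over 127. Against WT, AT3G29648 in cxs *ashh3* was not called (adjusted P = 0.762) and AT3G29650 was at 0 in both, while 2.04% of all genes and 3.89% of TE genes were called higher. The seed storage genes *CRA1* and *CRC* moved in the same direction: their sum was 2.74 to 113 CPM in cxs, 0.314 to 0.463 CPM in cxs *ashh3*, and 0.702 to 9.67 CPM in WT. In cxs the sum was 2.74 CPM in replicate 1, 15.9 CPM in replicate 2, and 113 CPM in replicate 3. Replicate 1 was lowest for the sum and for both genes of the pair, and replicate 2 held most reads of the pair. The part of the seed storage genes in the result was not tested.

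**Figure D5:**
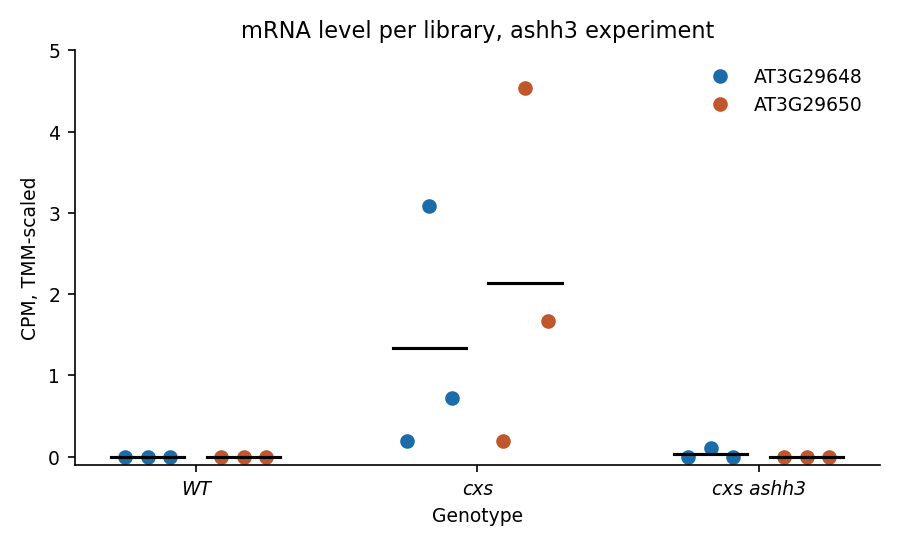
CPM of both genes in the 9 libraries of the *ashh3* experiment. Points are libraries and black lines are means of 3 libraries. In cxs, replicate 2 stands at 3.08 and 4.53 CPM and replicate 1 at 0.196 CPM for both genes, and all WT and cxs *ashh3* libraries but 1 are at 0.

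The cxs plants without *ldl2* or *ashh3* occur in both experiments. Their levels were 0.352 and 0.289 CPM in the *ldl2* experiment and 1.33 and 2.13 CPM in the *ashh3* experiment for AT3G29648 and AT3G29650. The marker genes differed between these cxs groups as well, with *PYK10* at 133 and 1388 CPM, *CAB3* at 5335 and 2374 CPM, and *CRA1* at 0.333 and 24.1 CPM, and their part in the levels was not tested. The tables were scaled separately and the experiments were not tested against each other.

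The chromosome 4 copies showed the same order of parents. AT4G06588 had no counts in WT, 43, 44, and 37 counts in *suvh4/5/6*, and 0, 5, and 2 counts in *cmt2/3*. AT4G04105 had none in WT, 64, 97, and 56 counts in *suvh4/5/6*, and 16, 30, and 21 counts in *cmt2/3*. Both rose in *suvh4/5/6* against WT (adjusted P = 6.89e-06 and 2.06e-07), and in *cmt2/3* AT4G04105 rose (adjusted P = 3.42e-05) while AT4G06588 did not pass (adjusted P = 0.0857). The parents differed for AT4G06588 (log2 difference, 3.91 ± 0.65 SE, adjusted P = 0.00165) but the smaller difference of AT4G04105 did not pass (1.52 ± 0.42 SE, adjusted P = 0.18). Per length, AT4G06588 in *suvh4/5/6* stood at 1.13 TPM and AT4G04105 at 2.89 TPM, below both genes of the insert. Neither copy is among the 194 LDL2-regulated TE genes.

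The *ldl2* effect on the copies in the F1 was tested after their counts had been seen. From sxc to sxc *ldl2*, AT4G06588 went from 0, 1, and 0 to 21, 24, and 25 counts and AT4G04105 from 1, 0, and 0 to 15, 36, and 44 counts. Both rose (adjusted P = 0.00322 and 0.000481), but neither passed when sxc and sxc *ldl2* were fitted alone (adjusted P = 0.157 and 0.164). From cxs to cxs *ldl2*, AT4G06588 went from 0, 2, and 0 to 8, 15, and 30 counts (adjusted P = 0.0434) and AT4G04105 from 6, 5, and 4 to 8, 41, and 49 counts (adjusted P = 0.0654). The call of AT4G06588 in cxs *ldl2* was lost without cxs replicate 1 (adjusted P = 0.178) or replicate 3 (0.261), without cxs *ldl2* replicate 2 (0.0948) or replicate 3 (0.0859), and with these genotypes fitted alone (0.527). AT4G04105 passed in cxs *ldl2* without cxs replicate 2 (adjusted P = 0.0479) or cxs *ldl2* replicate 1 (0.000921), with filterByExpr (0.0464), the replicate block (0.035), bias-adjusted quasi-dispersions (0.0263), and DESeq2 (0.00431), and its adjusted P was up to 0.527 under the others. These copies share sequence with the pair and are no independent sample of TEs.

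Around the insert, 24 genes start or end within 50 kb, of which 14 are TE genes. The nearest on the left, AT3G29647 and AT3G29643, had 1 count each over the 27 libraries of the *ldl2* experiment, and 5892 bases lie between AT3G29647 and AT3G29648. On the right, the TE gene AT3G29660 starts 1082 bases after AT3G29650, outside the insert, and had 56 counts in all, with at most 12 in a library. The next gene, AT3G29670 (PMAT2, a malonyltransferase gene), starts 6430 bases away and had 1808 counts. None of these 4 was called in any of the comparisons. Farther out, AT3G29639, AT3G29730, AT3G29732, and AT3G29734 rose in *suvh4/5/6* against WT, and AT3G29734 rose also in *cmt2/3* against WT. AT3G29639 is a protein-coding gene and the others are TE genes. In *suvh4/5/6* 2.09% of all genes and 11% of TE genes were called higher, and in *cmt2/3* 2.32% and 5.89%. Of the 24 neighbors none was called in the other comparisons. In the *ldl2* contrasts of the parents and F1 crosses 0.0208% to 0.119% of all genes were called higher. Against WT in the *ashh3* experiment it was 2.37% for cxs and 2.04% for cxs *ashh3*. A count of 0 among 24 genes therefore says little.

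The genes with the most similar pattern were listed without a test, as the highest Pearson r of log2(CPM + 0.5) over the 27 libraries among 20468 genes with a mean of at least 1 CPM. The 27 libraries include the F1 libraries that chose the pair. For AT3G29648 these were AT2G13300 (r = 0.96), AT1G17277 (0.95), AT4G06588 (0.95), AT4G04105 (0.94), and AT5G26345 (0.93). For AT3G29650 they were AT1G17277 (0.97), AT2G13300 (0.95), AT4G04105 (0.94), AT3G42545 (0.93), and AT5G26345 (0.93). All 6 genes are TE genes, 4 are named for both, and 3 are in the list of 194. AT5G26345 had 0.422 CPM in sxc and 13.7 CPM in sxc *ldl2*, whereas AT3G42545, with 43.1 CPM in *suvh4/5/6*, had 8.70 CPM in sxc *ldl2*. AT2G13300 and AT3G42545 were counted on the antisense strand.

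Of the 10 genes of the silencing pathway (*SUVH4*, *SUVH5*, *SUVH6*, *CMT2*, *CMT3*, *LDL2*, *ASHH3*, *IBM1*, *DDM1*, and *MET1*), none was called for *ldl2* in either parent or in cxs. *SUVH6* was called higher in sxc *ldl2* against sxc (adjusted P = 0.00749). In these *ldl2* contrasts 0.0208% to 0.119% of all genes were called higher, so that a count of 0 among 10 genes says little. Against WT, 3 of the 10 fell and none rose in each parent, beside 177 of all 33602 genes in *suvh4/5/6* and 456 in *cmt2/3*. In *suvh4/5/6* 2 of the 3 were the mutated *SUVH4* and *SUVH5*, and in *cmt2/3* 1 was the mutated *CMT3*. *IBM1*, which encodes an H3K9 demethylase, was among them in both (adjusted P = 2.16e-06 in *suvh4/5/6* and 0.0022 in *cmt2/3*), and *MET1*, the maintenance methyltransferase of CG sites, fell in *cmt2/3* (adjusted P = 0.0171). In cxs *ashh3* against cxs none of the 10 was called, beside 170 of all 33602 genes called lower and 187 called higher. *ASHH3* itself was at 12.5 ± 0.910 CPM (SD, n = 3) against 17.4 ± 1.66 CPM (adjusted P = 0.171). Against WT, *SUVH4*, *ASHH3*, and *IBM1* were called lower in cxs *ashh3*, beside 1139 of all 33602 genes. In cxs against WT, *CMT3* and *IBM1* were called lower, beside 1093 of all genes.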

How the data were processed

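Seedling RNA was made into libraries by the authors (KAPA mRNA HyperPrep), read from both ends at 150 bases with 50 bases clipped, and mapped with STAR to TAIR10. The deposited values used here are read counts per gene on the strand with the larger sum, not normalized. All columns were assigned by their labels (0 were not), and 12 further files that the labels do not tie to samples were not used, nor were other data types. For tests, edgeR 4.0.16 was run in R 4.3.3: TMM scaling, no filter, all genotypes of an experiment together, the quasi-likelihood F test, and Benjamini-Hochberg adjustment over all 33602 genes, with a threshold of 0.05. The main edgeR fit used the legacy quasi-dispersions, and the bias-adjusted ones were an alternative. DESeq2 1.42.0 was another. The edgeR fit was tested on simulated counts, in a single comparison for each experiment. These had the same dispersion for all genes, and differences were set only in genes above a minimum mean level. The simulation therefore does not cover groups with almost no counts, such as WT for the pair. Sequences came from RefSeq TAIR10.1 and matches from blastn (BLAST+ 2.17.0). TPM used exon lengths of that annotation. No replicates were alike within counting noise, the lowest chi-square being 3.39 for each degree of freedom. Library totals were 8252720 to 12942034. Replicates are independent by the study's methods. Deviations of same-numbered libraries from their genotype means correlated in all 3 pairs only for *suvh4/5/6 ldl2* and *suvh4/5/6* (r from 0.13 to 0.51). The main fit did not pair libraries in this comparison either, and the replicate block was an alternative.

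The genes and lists were chosen with earlier results of these data known. Genes named are the pair, the 5 most similar genes for each, sequence relatives, the nearest 2 neighbors on each side and any called neighbor, and the pathway and marker genes. Two-sided tests compared the genotypes as the text gives them. Alternatives were RLE scaling, filterByExpr, the compared genotypes alone, the replicate number as a block, DESeq2, bias-adjusted quasi-dispersions, and leaving out each library. Neither the F1 tests of the chromosome 4 copies nor the ratios without cxs *ldl2* replicate 2 were planned, and both were added after values were seen.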

Additional observations from a re-analysis of the deposited data

How the results depend on the processing

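For AT3G29648 and AT3G29650, the rises in *suvh4/5/6* and *cmt2/3* against WT and the difference between these parents stayed past the threshold under all alternatives. The *ldl2* effect in *cmt2/3* passed with DESeq2 (adjusted P = 0.0377 and 0.0308) and with the genotypes alone (0.0351 and 0.00104). The *ldl2* effect in *suvh4/5/6* passed only for AT3G29648 with the genotypes alone (0.0374). The cause was not tested. In the *ashh3* experiment, cxs against WT was lost with bias-adjusted quasi-dispersions (0.0617 for AT3G29648 and 0.0515 for AT3G29650) and, for AT3G29650, with DESeq2 (0.207). The fall of AT3G29650 in cxs *ashh3* was lost with bias-adjusted quasi-dispersions (0.163) and DESeq2 (0.386). Leaving out 1 library gave an adjusted P of 0.00159 to 0.277 (AT3G29648) and 3.61e-05 to 0.121 (AT3G29650) for cxs against WT, and of 0.0306 to 0.597 and 0.000279 to 0.207 for cxs *ashh3* against cxs. The fall of AT3G29650 was lost without any 1 of the cxs *ashh3* libraries (0.0961, 0.083, and 0.0654) and without cxs replicate 2, and AT3G29648 passed without cxs replicate 1 (0.0306).

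The sign of 1 uncalled value turned, that of the difference of the *ldl2* effects for AT3G29648 without *cmt2/3 ldl2* replicate 1 (log2 difference, -0.04, adjusted P = 1). In cxs *ashh3* against WT, AT3G29648 went to 0 without cxs *ashh3* replicate 2, as no count is left, and AT3G29650 went from 0 to -0.11 with the replicate block (adjusted P = 1 for both). Leaving out 1 library gave 1 to 1 and 0.992 to 1 for the difference of the effects, and 0.781 to 1 and 1 to 1 for cxs *ashh3* against WT.

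In the other comparisons same-numbered libraries did not deviate together in all pairs, with r down to -0.56 for sxc *ldl2* and sxc. With the replicate block the adjusted P for *ldl2* in *suvh4/5/6* was 1 for both genes, the fall of AT3G29650 in cxs *ashh3* had 0.0443, and no call for the pair changed.

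With the genotypes alone, 50 of the 194 LDL2-regulated TE genes rose with *ldl2* in *cmt2/3*, and 28 with DESeq2, against 9 in the joint fit. In *suvh4/5/6* this was 2 with the genotypes alone and 0 to 1 without 1 library, against 1. In cxs *ashh3* against cxs, 8 of the 194 fell with filterByExpr, 9 with DESeq2, and 9 without cxs *ashh3* replicate 1, against 14, and 1 rose with filterByExpr, with the replicate block, and without cxs *ashh3* replicate 2, against 3. The share of all genes called was not counted under any of these alternatives. The CPM levels of the pair stayed within 1 SD under RLE scaling and raw library totals. Without cxs replicate 2 the levels in the *ashh3* experiment went from 1.33 to 0.456 CPM (AT3G29648) and from 2.13 to 0.934 CPM (AT3G29650). With a pseudocount of 1, 4 of the 5 most similar genes were shared for each gene, and without the filter on the mean all 5 were. The values of AT3G29648 and AT3G29650 in sxc and cxs, and in all groups of the *ashh3* experiment, rest on few counts, so that small differences there could not be resolved at this depth.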
